A study of Mus musculus with 16 samples.

Results

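The genes described here are 10 regulators that act on, or beside, the myogenic basic helix-loop-helix (bHLH) factors, taken by symbol from the 31053 gene rows of an mRNA sequencing experiment in C2C12, a line of mouse myoblasts able to fuse into myotubes. They are the Id genes Id1, Id2, Id3 and Id4, the bHLH repressors Twist1, Twist2 and Msc, the zinc finger repressors Snai1 and Snai2, and the E protein gene Tcf4. The 4 conditions compared had 4 samples each: WT myoblasts (undifferentiated C2C12), WT myotubes (differentiated C2C12), Fam134bKO myoblasts and Fam134bKO myotubes, in which the ER-phagy receptor gene Fam134b was targeted with CRISPR-Cas9 by lentiviral delivery of guide pairs and drug selection. All conditions shared DMEM with 10% FBS, and the myotubes arose in it without a switch of medium. Genotype and stage came from the sample titles, since the separate genotype field gives no genotype, and the sources used here do not state whether the Fam134bKO line was a single clone. The labels call the samples biological replicates but do not say that they came from separate cultures, so the p-values below measure the spread between these samples.

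Myogenic bHLH factors such as MyoD and myogenin switch on muscle genes as dimers with an E protein, and these dimers bind a short DNA motif, the E-box. Id proteins carry the helix-loop-helix dimerization domain but no DNA-binding region, so they take E proteins away from MyoD and hold myoblasts in an undifferentiated, dividing state. Twist proteins and musculin (Msc, also MyoR) are bHLH proteins that compete for E proteins or for the E-box itself, while Snail proteins are zinc finger repressors that occupy a subset of E-boxes in muscle enhancers. Tcf4 (also E2-2, not the Wnt effector Tcf7l2) is an E protein, a partner of MyoD and a binding target of the Id proteins rather than a repressor.

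Promoter sequences were available for 6 of the 10 genes (RefSeq, GRCm38.p6, the assembly that UCSC calls mm10). Those of Id2, Id3 and Twist2 are printed because these genes fell together during WT differentiation, as described below. Each line gives the 250 bases directly upstream of the annotated gene start, 5′ to 3′ on the strand of the gene, with E-boxes (CANNTG, a sequence that reads the same on both strands) in capitals. Id2 lies on the minus strand at chr12:25096093-25096342, Id3 on the plus strand at chr4:136143572-136143821 and Twist2 on the plus strand at chr1:91801211-91801460.
Id2: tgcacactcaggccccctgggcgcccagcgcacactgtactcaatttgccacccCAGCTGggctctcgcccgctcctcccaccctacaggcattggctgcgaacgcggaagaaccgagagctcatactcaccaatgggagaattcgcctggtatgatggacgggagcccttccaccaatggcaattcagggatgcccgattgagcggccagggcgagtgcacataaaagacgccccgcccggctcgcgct
Id3: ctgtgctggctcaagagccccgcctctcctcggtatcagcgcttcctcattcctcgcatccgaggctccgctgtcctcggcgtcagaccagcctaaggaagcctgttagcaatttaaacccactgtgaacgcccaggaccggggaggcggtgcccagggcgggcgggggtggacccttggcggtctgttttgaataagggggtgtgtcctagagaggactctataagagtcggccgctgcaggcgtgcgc
Twist2: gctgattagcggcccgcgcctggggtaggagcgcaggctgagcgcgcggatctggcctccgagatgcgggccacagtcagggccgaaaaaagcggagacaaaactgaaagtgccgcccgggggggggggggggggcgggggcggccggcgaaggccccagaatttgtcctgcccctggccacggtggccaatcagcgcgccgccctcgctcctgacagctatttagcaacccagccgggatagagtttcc
The Id2 window held 1 E-box, CAGCTG, starting 196 bases upstream, a core found in 12.8% of 27025 mouse promoter windows of the same length. The Id3 and Twist2 windows held no E-box, against 66% of all windows that held at least 1. The Id2 window also held the CCAAT motif 3 times on either strand and the Twist2 window held 1 copy, and 34.5% of all windows had it. The Snai1 window contained 1 E-box of the CACCTG form, found with its reverse complement CAGGTG in 17.1% of windows, and the Id4 and Twist1 windows contained none. Windows of Id1, Snai2, Msc and Tcf4 were not analysed here.

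Between 1484750 and 3287461 reads were counted on genes per sample. The deposited values are log2(normalized count + 1), and the reads behind every value could be recovered from them. A level of 3 reads, taken as the smallest detected, corresponds to a normalized count of 2.49 to 5.99, and such limits cover counting error only. Replicates 2 and 4 of Fam134bKO myotubes had under 2000000 reads (1790524 and 1484750) and lay farthest from their group mean over all genes (root mean square deviation of 0.691 and 0.616 on the log2 scale, against 0.260 to 0.491 in the other 14 samples). Fam134b itself was lower in the Fam134bKO samples by a log2 fold change of -2.86 in myoblasts and -2.46 in myotubes. The summed normalized count of 8 myotube marker genes was 16.7 to 22.4 in Fam134bKO myoblasts, where 6 of the 8 (Myog, Myh3, Actc1, Tnnc2, Ckm and Mymk) had at most 3 reads in every sample, and 1687 to 2537 in WT myoblasts. In myotubes it was 12060 to 16000 in Fam134bKO and 26810 to 40070 in WT. Summed counts of 7 myoblast marker genes were also lower in Fam134bKO cells without overlap, at 408 to 545 against 1329 to 2285 in myoblasts and 1900 to 2743 against 4142 to 6378 in myotubes. By the test given below, 5 of the 7 were lower in myoblasts (Cdh15, Chrna1, Des, Itga7 and Myod1) and 4 in myotubes (the same without Itga7). Myf5 went the other way in myoblasts, at 107 to 118 in Fam134bKO and 59.8 to 82.0 in WT, but was not called. On differentiation 5 of the 7 rose in each genotype, so their sum is not specific to the undifferentiated stage. Summed counts of 7 fibroblast marker genes in myoblasts were 2679 to 5512 for WT and 3719 to 13980 for Fam134bKO, and in myotubes 12370 to 22000 for WT and 17040 to 35810 for Fam134bKO. Of these 7, 4 could be tested and 2 rose with the knockout at each stage (Col1a1 and Col3a1 in myoblasts, Dcn and Col3a1 in myotubes), whereas Thy1, Lum and Dpt had at most 3 reads in every sample. The sum was mostly Col1a1 (a mean of 3078 in WT myoblasts, where the median sum was 3414). Col1a1, Col3a1 and Dcn also rose on differentiation in each genotype, so this sum depends on the stage too. By the same test the chondrocyte marker Sox9 was higher with the knockout in myoblasts (0.895) and myotubes (0.837), whereas Acan, Col2a1 and Matn1 had at most 3 reads in every sample. The adipocyte marker Pparg was higher in Fam134bKO myoblasts (1.84), whereas Adipoq, Plin1, Fabp4 and Cidec had at most 3 reads in every sample. No osteoblast marker was called between genotypes, and no macrophage marker could be tested. The part of these marker changes in the results below was not tested. In bulk RNA, fewer cells of a type and less RNA per cell cannot be told apart.

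Id2, Id3 and Twist2 fell when WT cells differentiated, and in Fam134bKO cells Id2 was lower and Snai2 higher than in WT at both stages. The WT differentiation calls of Id2 and Id3 and the myotube genotype call of Id2 were lost without certain single samples, as given below. Of the 10 genes, 8 had enough reads to be tested (4 or more samples with a normalized count of 10 or more), and Id4 and Msc did not. Genes were called with limma at an adjusted p under 0.05. In WT myotubes against WT myoblasts, 3 genes fell (Id2, Id3 and Twist2) and 0 rose, where 9.16% of the 10767 genes tested fell and 13.8% rose. Without the adjustment, at p under 0.05, they were also 3 and 0. In Fam134bKO myotubes against Fam134bKO myoblasts, 1 gene fell (Twist2) and 1 rose (Tcf4), with 16.1% and 17.3% of all genes tested. In Fam134bKO against WT myoblasts, 1 gene fell (Id2) and 1 rose (Snai2), beside 8.5% and 7.26%. In Fam134bKO against WT myotubes, 1 gene fell (Id2) and 2 rose (Snai2 and Tcf4), beside 13.7% and 9.74%. The difference between the genotypes in the change on differentiation, tested as an interaction, was called for 1 gene, Tcf4, in the positive direction, where 1.97% of all genes were called positive and 1.48% negative. Without the adjustment Id3 also fell in Fam134bKO differentiation and Tcf4 was also lower in Fam134bKO than in WT myoblasts, while the other counts stayed the same. Comparisons that share a group are not independent of each other.

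The 4 samples of one condition lay entirely on one side of the other for 3 genes in WT differentiation (Id2, Id3 and Twist2), against 28% of all genes tested. This held for 2 genes in Fam134bKO differentiation (Twist2 and Tcf4), beside 27.4%. Between genotypes it held for 3 genes in myoblasts (Id2, Snai2 and Tcf4), beside 26.8%, and for 1 gene in myotubes (Snai2), beside 19.4%. The median log2 fold change of the 8 tested genes was -0.49 in WT differentiation, -0.09 in Fam134bKO differentiation, -0.11 between myoblasts and 0.02 between myotubes, and the corresponding medians of all genes tested were -0.01, -0.02, -0.01 and -0.07.

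**Figure D1:**
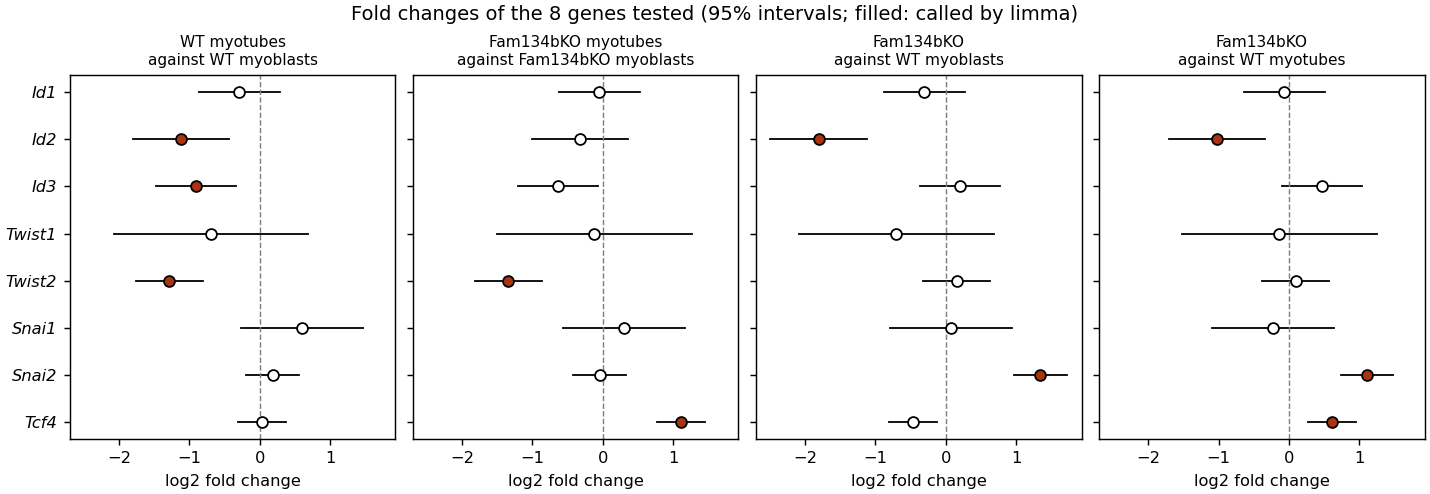
Log2 fold change (x axis, on the log2(normalized count + 1) scale) of the 8 genes tested in each of the 4 comparisons, one panel per comparison. Points are limma estimates, lines their 95% intervals, and filled points are genes called at an adjusted p under 0.05. Id2 lies left of 0 in all panels, with its interval crossing 0 only in Fam134bKO differentiation, and Snai2 lies near 0 in both differentiation panels and right of 0 in both genotype panels.

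Id2, an inhibitor that binds E proteins and sequesters them, fell on differentiation in WT cells and was already low in Fam134bKO myoblasts. Its normalized counts were 211, 359, 282 and 300.3 in WT myoblasts (288 ± 60.8, SD, n = 4), and 96.7, 119.6, 146 and 169 in WT myotubes (133 ± 31.6, SD, n = 4). They were 68.2, 85.5, 59.9 and 118 in Fam134bKO myoblasts (82.8 ± 25.6, SD, n = 4), and 47.4, 32.1, 74.7 and 144 in Fam134bKO myotubes (74.5 ± 49.5, SD, n = 4). Every WT myoblast sample was above every sample of the other conditions, and relative to the group mean the Fam134bKO myotube samples were the most scattered. The log2 fold change on WT differentiation was -1.12 (standard error, SE, 0.33; adjusted p = 0.0183 by limma after the Benjamini-Hochberg correction), a 2.17-fold decrease. Fam134bKO myoblasts were lower than WT myoblasts by a log2 fold change of -1.81 (SE 0.33, adjusted p = 0.000386), 3.5-fold, and no sample overlapped (p = 0.0286 in an exact permutation test, two-sided, the smallest p for 4 against 4 samples). In myotubes the genotype difference was -1.02 (SE 0.33, adjusted p = 0.0290), but the samples overlapped and the exact permutation test gave p = 0.0857. Within Fam134bKO cells the change on differentiation was -0.32 (95% interval -1.01 to 0.36, adjusted p = 0.474), and its difference from the WT change was 0.79 (95% interval -0.18 to 1.76, adjusted p = 0.392). The WT differentiation call was lost without WT myoblast replicate 2 (-1.003, adjusted p = 0.0570) or WT myotube replicate 1 (-0.98, adjusted p = 0.0700). The myotube genotype call was lost without WT myotube replicate 3 (-0.96, adjusted p = 0.0750) or 4 (-0.89, adjusted p = 0.0947), or Fam134bKO myotube replicate 1 (-0.88, adjusted p = 0.0800) or 2 (-0.69, adjusted p = 0.0999). It was also lost when only the 8 myotube samples were fitted (adjusted p = 0.0809), while the myoblast genotype call held with each of the 16 samples left out (-1.99 to -1.67, highest adjusted p 0.00252).

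Id3, another inhibitor of E protein dimerization, fell during WT differentiation, and its change in Fam134bKO cells missed the threshold. Normalized counts were 687, 549.7, 505 and 686 in WT myoblasts (607 ± 93.7, SD, n = 4) and 319, 467, 191 and 369 in WT myotubes (336 ± 115, SD, n = 4). In Fam134bKO cells they were 650.1, 1016, 581 and 599 in myoblasts (712 ± 205, SD, n = 4) and 688, 397, 542 and 264 in myotubes (473 ± 183, SD, n = 4). WT myotubes lay below WT myoblasts in every sample, whereas Fam134bKO myotubes overlapped with every other condition. The WT change was -0.91 on the log2 scale (SE 0.27, adjusted p = 0.0202), a 1.88-fold decrease. The Fam134bKO change was -0.64 (95% interval -1.20 to -0.07, adjusted p = 0.0762) and missed the threshold, and the difference of the 2 changes was 0.27 (95% interval -0.53 to 1.07, adjusted p = 0.769). The genotype differences were 0.20 in myoblasts (95% interval -0.36 to 0.77) and 0.47 in myotubes (95% interval -0.09 to 1.04). Of the Id3 results, the WT call was lost without WT myoblast replicate 1 (-0.85, adjusted p = 0.0534) or 4 (-0.85, adjusted p = 0.0615), or WT myotube replicate 3 (-0.66, adjusted p = 0.0899). Without Fam134bKO myotube replicate 1 the Fam134bKO change was called (-0.85, adjusted p = 0.0248). Without Fam134bKO myotube replicate 4 Id3 was called higher in Fam134bKO than in WT myotubes (0.72, adjusted p = 0.0499), and likewise without both libraries under 2000000 reads (0.93, adjusted p = 0.0219).

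Id1, a BMP-responsive member of the same family, did not pass the test in any comparison. Normalized counts in WT cells were 43.0 to 77.5 before and 38.9 to 66.0 after differentiation, and they were 31.2 to 65.6 in Fam134bKO myoblasts and 30.0 to 56.9 in Fam134bKO myotubes, so all 4 conditions overlapped. The log2 fold changes were -0.29 (95% interval -0.86 to 0.28) in WT differentiation, -0.05 (-0.62 to 0.52) in Fam134bKO differentiation, -0.30 (-0.87 to 0.27) between myoblasts and -0.06 (-0.63 to 0.51) between myotubes. Id4 was at the edge of detection, with 1 read in each of WT myoblast replicates 1 and 3 and 0 reads in the other 14 samples, where a count of 0 allows up to 3 reads.

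**Figure D2:**
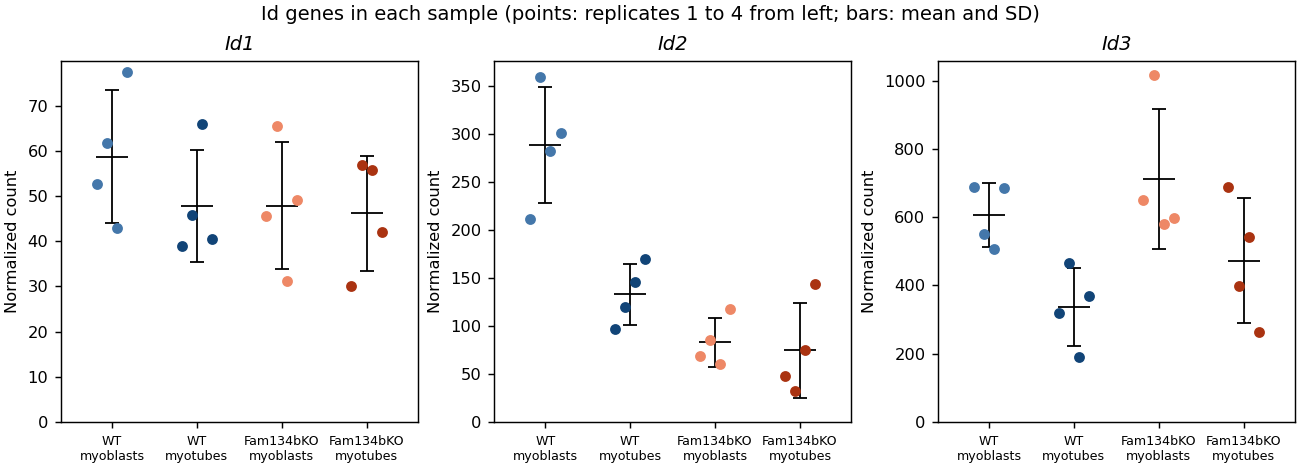
Normalized count (y axis) of Id1, Id2 and Id3 in each sample of the 4 conditions (x axis); points are samples in the order of their replicate numbers and bars give the mean and SD (n = 4). For Id2 the 4 WT myoblast samples, 211 to 359, lie above all 12 other samples, and for Id1 the conditions overlap throughout.

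Twist2, which binds E proteins and MyoD and keeps mesenchymal cells immature, fell on differentiation in both genotypes. Its normalized counts were 108, 103, 108 and 111 in WT myoblasts (108 ± 3.38, SD, n = 4) and 34.5, 47.7, 49.3 and 44.6 in WT myotubes (44.0 ± 6.61, SD, n = 4). They were 119.9, 133, 92.0 and 142 in Fam134bKO myoblasts (122 ± 21.7, SD, n = 4) and 51.3, 27.7, 59.4 and 55.9 in Fam134bKO myotubes (48.6 ± 14.3, SD, n = 4). All 8 myotube samples lay below all 8 myoblast samples. The log2 fold change was -1.28 in WT cells (SE 0.23, adjusted p = 0.000371) and -1.34 in Fam134bKO cells (SE 0.23, adjusted p = 0.000115), decreases of 2.44-fold and 2.54-fold. The difference between the 2 changes was -0.06 (95% interval -0.73 to 0.61), and the genotype differences were 0.16 in myoblasts (95% interval -0.32 to 0.63) and 0.10 in myotubes (95% interval -0.38 to 0.57). Both differentiation calls held with each of the 16 samples left out in turn, with the WT change between -1.34 and -1.17 and the Fam134bKO change between -1.47 and -1.10. An exon of Twist2 overlaps the antisense gene Gm29100, which had 0 to 11 reads per sample, and the strand setting of the counting is not given in the sources used here.

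Twist1, the paralogue of Twist2 that also blocks MyoD, was sparse. Between 0 and 23 reads were counted per sample, with normalized counts of 9.23, 22.2, 10.0 and 9.80 in WT myoblasts and 11.2, 2.70, 9.29 and 7.93 in WT myotubes. In Fam134bKO cells they were 6.12, 10.8, 5.21 and 6.67 in myoblasts and 11.6, 14.6, 13.5 and 0 in myotubes. No difference of Twist1 passed the test, and the intervals were wide, from -2.08 to 0.69 for WT differentiation and from -2.09 to 0.68 between myoblasts. The direction in the 2 comparisons that involve Fam134bKO myotubes rested on replicate 4, the sample with 0 reads: without it the change on Fam134bKO differentiation turned from -0.12 to 0.83 and the myotube genotype difference from -0.14 to 0.82. Msc, a repressor of MyoD in myoblasts, had 0 to 2 reads per sample and was not tested.

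Snai2 (Slug), a Snail-family repressor that binds E-boxes, was higher in Fam134bKO cells at both stages and was not called for differentiation in either genotype. Normalized counts were 145, 231, 146 and 129 in WT myoblasts (163 ± 46.3, SD, n = 4) and 199, 132, 210.0 and 192 in WT myotubes (183 ± 34.9, SD, n = 4). They were 402, 400.1, 391 and 424 in Fam134bKO myoblasts (404 ± 13.8, SD, n = 4) and 378, 360.4, 414 and 418 in Fam134bKO myotubes (392 ± 27.9, SD, n = 4). The lowest Fam134bKO sample, at 360.4, was above the highest WT sample, at 231. Relative to WT the log2 fold change in myoblasts was 1.34 (SE 0.18, adjusted p = 1.00e-05) and in myotubes 1.11 (SE 0.18, adjusted p = 0.000142), which is 2.54-fold and 2.16-fold. The changes on differentiation were 0.19 in WT (95% interval -0.19 to 0.56) and -0.05 in Fam134bKO cells (95% interval -0.42 to 0.33), and their difference was -0.23 (95% interval -0.76 to 0.30, adjusted p = 0.690). Both genotype calls held with each of the 16 samples left out, at 1.25 to 1.52 in myoblasts and 0.96 to 1.18 in myotubes. The fibroblast marker sums given above, mostly counts of Col1a1, overlapped between the genotypes at both stages. Their medians were higher in Fam134bKO cells (8503 against 3414 in myoblasts and 25710 against 15900 in myotubes). The part of these sums in the Snai2 difference was not tested.

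Snai1 (Snail), the paralogue that excludes MyoD from E-boxes of muscle enhancers, was variable and did not pass the test in any comparison. Its normalized counts were 57.2, 46.3, 42.0 and 55.3 in WT myoblasts, 117, 40.5, 64.1 and 111 in WT myotubes, 54.2, 80.5, 30.4 and 57.6 in Fam134bKO myoblasts, and 97.8, 67.1, 122 and 22.0 in Fam134bKO myotubes. The lowest value of all 16, 22.0, was from Fam134bKO myotube replicate 4 and rested on 11 reads. The log2 fold change was 0.60 on WT differentiation (95% interval -0.26 to 1.47) and 0.30 on Fam134bKO differentiation (95% interval -0.56 to 1.17). Without both libraries under 2000000 reads the latter was 1.04 and was called (adjusted p = 0.0364), and with a weight per sample the WT change was 0.84 and was called (adjusted p = 0.0182).

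**Figure D3:**
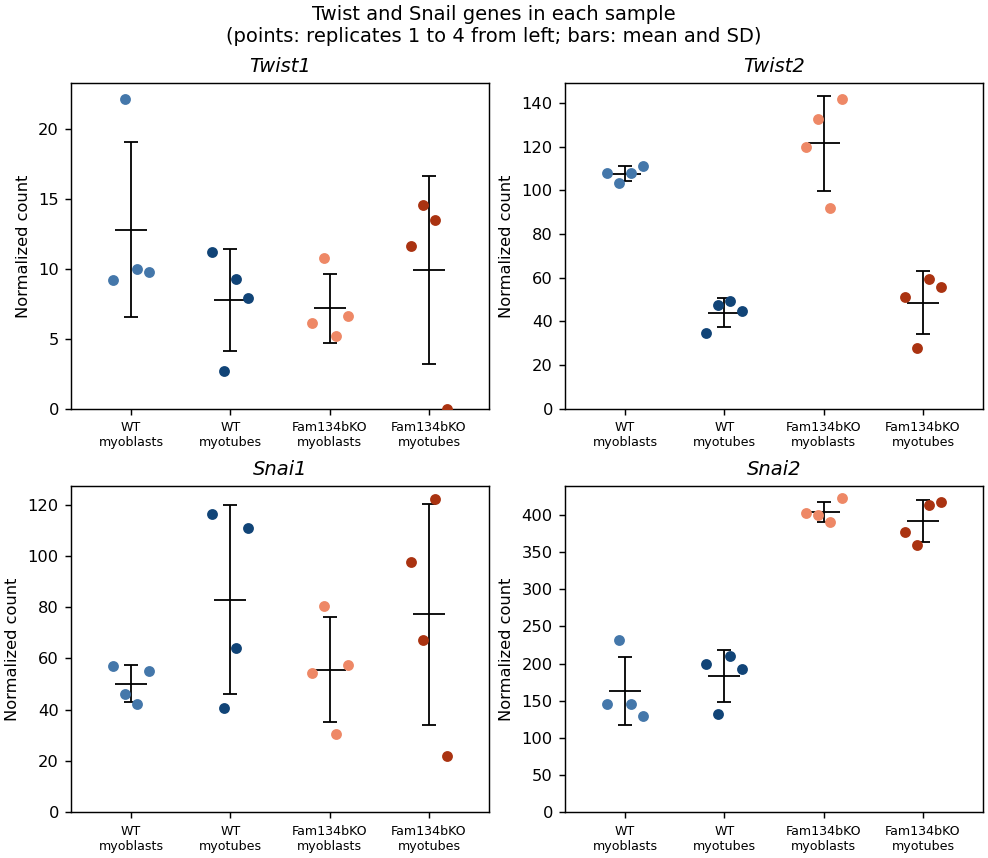
Normalized count (y axis) of Twist1, Twist2, Snai1 and Snai2 in each sample of the 4 conditions (x axis); points are samples in the order of their replicate numbers and bars give the mean and SD (n = 4). Twist2 separates all myotube from all myoblast samples, Snai2 separates all Fam134bKO from all WT samples, and the 4 conditions overlap for Twist1 and Snai1.

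Tcf4, the E protein of the group, rose on differentiation in Fam134bKO cells, and this change differed from that in WT cells by the test of the difference itself. Its normalized counts were 713, 923, 744 and 694 in WT myoblasts (769 ± 105, SD, n = 4) and 756, 668, 974 and 762 in WT myotubes (790.1 ± 129.8, SD, n = 4). They were 591, 529.6, 579.5 and 519 in Fam134bKO myoblasts (555 ± 35.7, SD, n = 4) and 908, 1300.1, 1187 and 1459 in Fam134bKO myotubes (1213 ± 232, SD, n = 4). The Fam134bKO myoblasts were the lowest condition in every sample, and the Fam134bKO myotubes the highest except that replicate 1 was below WT myotube replicate 3 and WT myoblast replicate 2. The log2 fold change on differentiation was 1.11 in Fam134bKO cells (SE 0.16, adjusted p = 2.39e-05), 2.16-fold, and 0.04 in WT cells (95% interval -0.31 to 0.38, adjusted p = 0.907). The interaction, 1.07 (SE 0.23, adjusted p = 0.0106), was called and held with each of the 16 samples left out (0.98 to 1.21, highest adjusted p 0.0308). Over the other alternatives it was as low as 0.87, with an adjusted p by limma of up to 0.0494, just under the threshold. The highest Tcf4 values, 1300.1 and 1459, came from the Fam134bKO myotube libraries under 2000000 reads.

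Against WT, Tcf4 was higher in Fam134bKO myotubes by 0.61 (SE 0.16, adjusted p = 0.01002, exact permutation p = 0.0571). That call was lost without both libraries under 2000000 reads (0.41, adjusted p = 0.133) and with only the 8 myotube samples in the fit (adjusted p = 0.0547). In myoblasts the difference was -0.46 (95% interval -0.80 to -0.12, adjusted p = 0.0608), which missed the threshold although the samples did not overlap. This difference was called without Fam134bKO myotube replicate 1 (adjusted p = 0.0394) or 4 (adjusted p = 0.0441), which enter only through the shared spread, and with only the 8 myoblast samples fitted (adjusted p = 0.0145).

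The other E protein genes were compared with Tcf4, as partners that Id proteins also bind. Tcf12 (HEB) had normalized counts of 328, 359.7, 292 and 345 in WT myoblasts and 363, 293, 355 and 382 in WT myotubes. It had 227, 218, 182 and 205 in Fam134bKO myoblasts and 390.2, 315, 444 and 402 in Fam134bKO myotubes. All Fam134bKO myoblast samples lay below all samples of the other conditions. Tcf12 was lower in Fam134bKO than in WT myoblasts (-0.67, SE 0.15, adjusted p = 0.00301) and rose on Fam134bKO differentiation (0.89, SE 0.15, adjusted p = 0.000105), with an interaction of 0.82 (SE 0.21, adjusted p = 0.0340). Tcf3 (E2A) was not called in any comparison, with log2 fold changes of -0.28 and -0.35 on WT and Fam134bKO differentiation and of 0.00 and -0.07 between genotypes in myoblasts and myotubes.

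**Figure D4:**
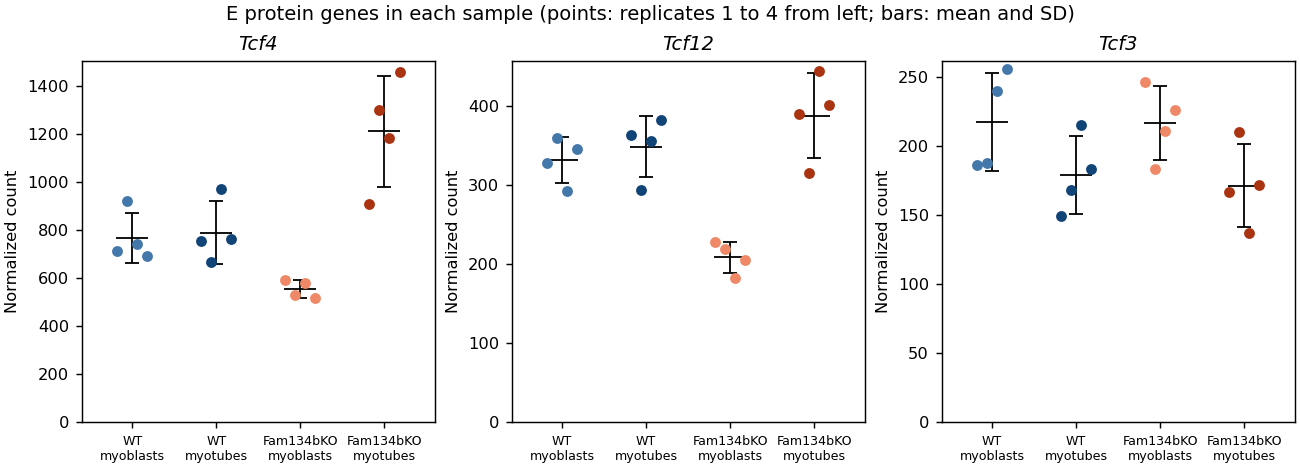
Normalized count (y axis) of the E protein genes Tcf4, Tcf12 and Tcf3 in each sample of the 4 conditions (x axis); points are samples in the order of their replicate numbers and bars give the mean and SD (n = 4). The Fam134bKO myoblast samples are the lowest of all for Tcf4 (519 to 591) and Tcf12 (182 to 227), and the conditions overlap for Tcf3.

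The order of the 4 conditions differed from gene to gene. For Id2 the order of mean log2 levels was WT myoblasts, WT myotubes, Fam134bKO myoblasts and Fam134bKO myotubes, and only the step from WT myoblasts to WT myotubes had no overlap. For Twist2 both myoblast conditions came before both myotube conditions, and for Snai2 both Fam134bKO conditions before both WT conditions, each with 1 gap free of overlap, in the middle of the order. For Tcf4 the only such gap separated Fam134bKO myoblasts, the lowest condition, from the rest. Neighbouring conditions of Id1, Id3, Twist1 and Snai1 overlapped at each step of their order.

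The spread between replicates was set against what counting alone gives. For Twist2 in WT myoblasts the coefficient of variation was 3.14%, below the 9.37% that its 107 to 125 reads per sample imply, and for Snai2 in Fam134bKO myoblasts it was 3.41% against 4.59%. For Id2 in Fam134bKO myotubes it was 66.4% against 15.1%, and for Snai1 in Fam134bKO myotubes 56.0% against 18%. For Id3 it was 15.4% to 38.8% over the 4 conditions where counting gives 3.55% to 5.98%. For Twist1 it was 34.3% to 48.9% against 28.9% to 39.9% in the 3 conditions without a sample at 0.

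Among samples of the same condition, Id3 and Tcf4 deviated from their group means in opposite directions. The correlation of their deviations was -0.83 over all 16 samples and -0.74 over the 12 samples without Fam134bKO myotubes. Id2 and Twist2 deviated together (0.72 over 16 samples and 0.66 over 12), and so did Twist1 and Snai1 (0.82 and 0.63) and Snai2 and Tcf4 (0.62 and 0.80). These values are descriptions chosen from 28 pairs of genes after all were computed, and the 2 genes of a pair share the library and its depth.

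**Figure D5:**
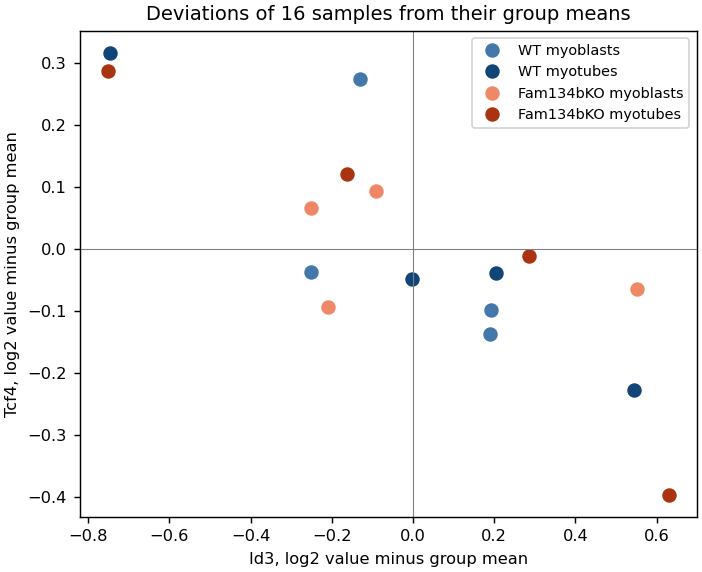
Deviation of each sample from its group mean on the log2 scale for Id3 (x axis) and Tcf4 (y axis); the 16 points are samples, coloured by condition. Samples high in Id3 for their condition tend to be low in Tcf4, with a correlation of -0.83 over 16 samples.

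The myogenic bHLH genes, the partners of the E proteins, included 2 that rose on differentiation in both genotypes. Myod1, which commits cells to the muscle lineage, rose in WT (1.45, adjusted p = 0.000466) and Fam134bKO cells (4.83, adjusted p = 6.31e-12), and was lower with the knockout in myoblasts (-4.81, adjusted p = 9.54e-12) and myotubes (-1.43, adjusted p = 0.000497). Myog, which drives terminal differentiation, had 0 reads in all 4 Fam134bKO myoblast samples, at least 44.5-fold below WT myoblasts and at least 299.7-fold below Fam134bKO myotubes, and rose on WT differentiation (3.23, adjusted p = 5.71e-10). Myf5, the third gene that could be tested of the 4 on this list, fell on Fam134bKO differentiation (-0.92, adjusted p = 0.0119) and was not called in the other comparisons. The fourth, Myf6, had 0 to 6 reads per sample. Interactions were called for Myod1 (3.39, adjusted p = 4.94e-06) and Myog (6.32, adjusted p = 1.29e-11), and the value for Myog depends on the pseudocount because of its group at 0 reads. Medians of the 3 tested genes were 1.45, 4.83, -4.81 and -0.51 in the 4 comparisons, in the order WT differentiation, Fam134bKO differentiation, genotype in myoblasts and genotype in myotubes, which is kept below.

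Of 6 MEF2 and Pax genes, which act with or upstream of the myogenic factors, 4 were tested. Mef2c, Mef2a and Mef2d rose on differentiation in WT (3.36, 1.05 and 0.79) and in Fam134bKO cells (Mef2c at least 9.32-fold, Mef2a 2.18 and Mef2d 1.04), and limma called 0 lower, also at an unadjusted p under 0.05. These 3 genes were lower in Fam134bKO myoblasts than in WT (Mef2c at least 3.64-fold, Mef2a -1.45 and Mef2d -0.60), and Mef2c was lower in Fam134bKO myotubes (-1.98). Their adjusted p was at most 0.0219, the interaction was called for Mef2a (1.13, adjusted p = 0.0288), and the list medians were 0.92, 1.61, -1.02 and -0.34.

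Of the muscle genes that myogenic bHLH factors activate, all 19 of 19 rose in WT and in Fam134bKO differentiation, with medians of 3.47 and 7.50 (7.33 with genes at the floor set to their bound). In Fam134bKO myoblasts 17 of 19 were lower than in WT (median -5.08, or -4.66 with bounds), and in myotubes 15 of 19 (median -1.33), and limma called 0 higher in either, also at an unadjusted p under 0.05. The embryonic myosin gene Myh3 and the cardiac actin gene Actc1 rose by 6.38 and 6.36 in WT differentiation, and Myh8, perinatal myosin, by 5.88. In Fam134bKO differentiation Myh3, Actc1 and Tnnc2 rose at least 776.9-fold, 809.5-fold and 535.3-fold. Mylpf, a fast myosin light chain gene, was lower in Fam134bKO myoblasts by -7.31, the troponin gene Tnnc2 at least 95.7-fold and the fusion gene Mymk at least 56.7-fold. In myotubes the called genes with the largest decrease were Tnnt3 (-2.07), Tnni2 (-2.06) and Ckm (-1.98), and interactions were called for 16 of 19, with Mylpf at 5.64. The interaction values of genes at the floor in Fam134bKO myoblasts, Mymk and Tnnc2 among them, depend on the pseudocount and are not given.

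The BMP pathway, a known inducer of Id transcription, was described by 3 lists. Of 8 tested receptors and SMADs, Acvr2a (1.08), Bmpr2 (0.91) and Bmpr1a (0.70) rose on WT differentiation, and in Fam134bKO cells Bmpr2 rose (0.82) and Acvr2b fell (-1.44). Between genotypes limma called 0 of 8 in myoblasts, with 0 at an unadjusted p under 0.05, and Acvr2b, an activin and BMP type II receptor, was lower in Fam134bKO myotubes (-2.24, adjusted p = 0.00210). Their medians were 0.40, 0.28, -0.05 and -0.02. Of 9 ligand genes 2 could be tested, and Bmp1, a protease grouped here by name, rose in WT (1.16) and Fam134bKO differentiation (1.03) while Bmp4 was not called, for list medians of 0.76, 0.43, 0.36 and 0.04.

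Of 8 tested BMP antagonists and feedback genes, the antagonist genes Chrd (at least 5.91-fold), Fst (3.26) and Fstl1 (0.81) rose on WT differentiation, and Fst rose on Fam134bKO differentiation (2.66). Fst was lower in Fam134bKO cells in myoblasts (-1.84, adjusted p = 0.0105) and in myotubes (-2.44, adjusted p = 0.000939), and Grem1 was lower in Fam134bKO myoblasts (-1.15, adjusted p = 0.0155). Fst had only 0 to 5 reads per sample in Fam134bKO myoblasts, 7 to 10 in WT myoblasts and 5 to 17 in Fam134bKO myotubes. Its fold changes against Fam134bKO myoblasts therefore depend on the pseudocount. Their medians were 0.12, 0.01, 0.03 and -0.13. The inhibitory SMAD genes Smad6 and Smad7, which BMP signalling itself induces, were not called in any comparison, with Smad6 at 1.07 (adjusted p = 0.0786) between myoblasts. For the interaction limma called 0 genes in each of the 3 lists, where 1 receptor or SMAD gene and 1 antagonist or feedback gene had an unadjusted p under 0.05.

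Of 11 tested genes for other bHLH and zinc finger E-box binders, 5 rose on WT differentiation, led by the Notch target genes Hey1 (2.16) and Heyl (1.85), and by Bhlhe41 (0.93), with Mitf and Zeb2 as the others, and 5 rose on Fam134bKO differentiation, led by Heyl (1.94), Hes6 (1.34) and Mitf (1.03), with Bhlhe41 and Zeb1 as the others. Limma called 0 lower in either, where 1 had an unadjusted p under 0.05 in each. In Fam134bKO myoblasts Heyl (-3.87, adjusted p = 1.32e-07) and Hes6 (-1.38, adjusted p = 2.56e-07) were lower and Mitf (0.79, adjusted p = 0.0439) was higher than in WT. In myotubes 3 genes were lower, Heyl (-3.78), Hey1 (-3.13) and Hes6, and 1 was higher, Mitf (1.01). Interactions were called for Hey1 (-2.98, adjusted p = 0.0140) and Hes6 (0.97, adjusted p = 0.00794), and the medians were 0.66, 0.40, -0.11 and -0.31.

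Genes of adhesion and mesenchyme that Snail and Twist proteins are known to regulate were counted last. Of 7 tested, 5 rose on WT differentiation, led by Cdh11 (2.81), Cdh15 (1.93) and Fn1 (1.85). In Fam134bKO differentiation 5 rose, led by Tnc (2.76), Fn1 (2.42) and Cdh15 (2.41), and 1 fell, the intermediate filament gene Vim (-1.01, adjusted p = 0.00129). The others that rose were Postn and Tnc in WT and Cdh11 and Postn in Fam134bKO differentiation. In WT cells Vim was also lower after differentiation, at 7474 to 9110 against 10713 to 13597 in myoblasts, but was not called. Cdh15, the muscle cadherin gene, was lower with the knockout in myoblasts (-2.08, adjusted p = 5.09e-07) and myotubes (-1.60, adjusted p = 3.12e-05). Cdh11, a mesenchymal cadherin gene, was higher in Fam134bKO myoblasts (2.46, adjusted p = 0.000451), and the matrix genes Postn (1.27) and Fn1 (1.05) were higher in Fam134bKO myotubes. The epithelial cadherin gene Cdh1, the classical Snail target, had a mean normalized count of at most 0.726 in each condition and was not tested. For the interaction limma called 0 of the 7, and 0 had an unadjusted p under 0.05. The medians were 1.83, 2.10, 0.49 and 0.19.

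In the lists above, Vim, Zeb1 and the genes given without a value were named after their values were seen.

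The genes whose log2 values followed each tested gene most closely over the 16 samples were found by Pearson's r, as a description in which libraries and conditions are shared. For Tcf4 they were Maf (0.918), a bZIP factor gene, and Zfp516 (0.907), and for Snai2 Mgst1 (0.962) and Slc1a3 (0.958). For Id2 they were Ndufs6 (0.925) and Nipsnap1 (0.911), both genes of mitochondrial proteins, and for Id3 Idh1 (0.902) and Tdp1 (0.890). Twist2 was followed by Hnrnpa3 (0.928) and Gcat (0.927), Twist1 by Cog6 (0.948) and Chuk (0.881), Snai1 by Tbpl1 (0.893) and Elk4 (0.880), and Id1 least closely, by Pcid2 (0.765) and Nol4 (0.749). With Spearman's rho in place of Pearson's r, Maf stayed first for Tcf4 (0.956) and Tdp1 came first for Id3 (0.915), while for Snai2 Mgst1 dropped to rank 200 and Slc1a3 to rank 99. For Twist1, which has a sample at 0 reads, Cog6 dropped to rank 5 (0.788) and Chuk to rank 158 (0.579).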

How the data were processed

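Total RNA of the 16 samples was sequenced by a digital mRNA service as single-end reads. Per the labels and the methods, the authors trimmed the reads, removed ribosomal RNA and phiX, aligned with STAR (2.6.0a in the submitters' processing notes, which also list HTSeq, bcl2fastq and the build mm10) and counted on genes. The deposited values are log2 values, log2(normalized count + 1), on 31053 gene rows, and the normalization tool and annotation are not given in the sources used here. For 100% of values above 0, 2 to the power of the value minus 1 is a whole multiple (within 0.1 read) of 1 step per sample, which gave reads and depth, 1484750 to 3287461 per sample. Rows without a symbol, 74 in all, hold 0.0126% of reads. The design allowed for log2 values, which were used without a further log step. Count models were not run, because the unit is log2.

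The 10767 genes that reached a normalized count of 10 in 4 or more of the 16 samples were fitted with limma 3.58.1 in R 4.3.3, using lmFit, contrasts.fit and the trended eBayes, with a mean for each of the 4 groups. Tests were 2-sided, and a call needed a p under 0.05 after Benjamini-Hochberg adjustment over all 10767 genes. The 1 spread per gene is shared by all groups. Fold changes are on the log2(normalized count + 1) scale, which understates those of low genes. Exact permutation tests used the 70 splits of 4 against 4 samples (Python 3.11.15). Where a group had no library above 3 reads, the fold is a lower bound, taken against the mean over libraries of 3 reads. Tested on simulated data for the WT comparison with 10767 genes and 200 changed, the procedure called 58% of changes of log2 1 and 99% of log2 2, and 5.99% of its calls were unchanged genes. The simulation gave all genes and groups the same spread beyond counting. The observed coefficients of variation were unequal, from 3.14% for Twist2 in WT myoblasts to 66.4% for Id2 in Fam134bKO myotubes. These rates therefore describe the simulated setting and need not hold for the data.

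The main fit used no block, because the study names no pairing, and a fit with the replicate block was an alternative. Samples with the same replicate number were also checked for shared deviations from their group means. The mean correlation was 0.033 over 24 pairs (-0.223 to 0.369) against -0.0108 over 72 pairs with different numbers. The 10 genes and the gene lists were chosen with earlier results of these data known. All 10 genes are named, with the 2 genes most like each tested one by Pearson's r and, from each list, up to 3 called genes per comparison with the largest fold change. Mymk, Mymx and Mef2b were matched to older symbols by Ensembl identifier. Over the last 500 bases of the transcripts, 0% of 31-base stretches were shared with another gene for each of the 10 genes except Msc (0.196%, with Olfr556). Alternatives were pseudocounts of 0.5 and 5, no filter, a minimum of 50, each of the 16 samples left out, the replicate block, sample weights, scaling by totals, quantiles or median ratios, a fit of the compared samples alone, a limit of 0.01 on the adjusted p, and a minimum size of 1 for the log2 fold change. Leaving out both libraries under 2000000 reads was added after seeing the data.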

Additional observations from a re-analysis of the deposited data

Results flagged for a closer look

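The change of Tcf4 on differentiation differed between the genotypes by 1.07 (log2; adjusted p = 0.0106 by the interaction term of limma, SE 0.23): it was 1.11 in Fam134bKO cells, with each of the 4 myotube samples above each of the 4 myoblast samples, and 0.04 in WT cells. Over the alternatives run, this difference was as low as 0.87, with an adjusted p by limma of up to 0.0494.

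In 3 of 36 groups of 4 samples with a read, 1 sample stood apart from the other 3 of its group by Dixon's 95% critical value on the log2(normalized count + 1) scale, where chance flags about 1 in 20. Twist1 in WT myoblasts was highest in replicate 2, at a normalized count of 22.2 (23 reads) against 9.23 to 10.0, a gap of 0.910 of the group's range. Twist1 in Fam134bKO myotubes was lowest in replicate 4, at 0 reads against 10 to 15 reads, a gap of 0.923 on the log2 scale that was 0.796, and no longer past the critical value, on normalized counts. On normalized counts, a scale chosen after seeing the data, Id3 in Fam134bKO myoblasts (0.842) and Snai2 in WT myoblasts (0.835) passed it instead, each with replicate 2 highest. Msc in Fam134bKO myotubes was highest in replicate 4, with 2 reads against 0 in the other 3, a gap of 1.000. With 3 samples tied at 0, any read in the remaining sample gives this gap, so the rate of 1 in 20 does not apply to it. The Msc value and the low Twist1 value lie in the library with the fewest reads, 1484750, and the part of depth in them was not tested.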

How the results depend on the processing

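Each fold change of the 8 tested genes was recomputed under up to 29 alternatives, 1147 values in all: 1084 kept their direction and side of the threshold, 19 lost a call, 10 gained one and 34 changed sign, none of the 34 being a called value. Part of the 1084 was fixed in advance. Leaving out a sample outside the 2 groups compared cannot move their fold change and acts only through the shared spread. The stricter limits on adjusted p and on size reuse the main fit, so a value not called there stays uncalled. Twist2 on differentiation in both genotypes, Snai2 at both stages, Id2 between myoblasts and Tcf4 on Fam134bKO differentiation kept their calls under each alternative run. With an adjusted p under 0.01 the number of genes called moved to 1 in WT differentiation, 1 between myotubes and 0 for the interaction. With only the 8 samples compared it moved to 1 between myotubes. Other alternatives moved it less, such as Id2 lost in WT differentiation without WT myoblast replicate 2 and Tcf4 gained between myoblasts with sample weights. The cause was not tested, beyond the stricter limit and the smaller set of samples themselves. The replicate block, for numbers that were not found to pair the samples, left 3, 2, 2, 3 and 1 genes called, the same genes as without it.

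Log2 fold changes that changed sign were all uncalled. On Fam134bKO differentiation, Id1 was 0.0614 with sample weights, and Twist1 was 0.13 with a pseudocount of 5, 0.0074 with quantile normalization, 0.38 with sample weights and 0.77 without both libraries under 2000000 reads. Between myoblasts, Snai1 was -0.0088 with sample weights. Between myotubes, Id1 was 0.0278 with quantile normalization, Twist1 was 0.10, 0.68, 0.11 and 0.75 under the same alternatives as before, and Snai1 was 0.52 without both libraries. For the interaction, Twist2 was 0.0358 with quantile normalization, 0.0772 with sample weights and 0.18 without both libraries, and Snai1 was 0.44 without them. With each sample left out, Tcf4 in WT differentiation ranged from -0.0695 to 0.13. On Fam134bKO differentiation Id1 ranged from -0.23 to 0.14 and Twist1 from -0.49 to 0.83, and between myoblasts Snai1 from -0.12 to 0.34. Between myotubes the ranges were -0.18 to 0.12 for Id1, -0.51 to 0.82 for Twist1, -0.0179 to 0.34 for Twist2 and -0.52 to 0.28 for Snai1, and for the interaction -0.19 to 0.18 for Twist2 and -0.60 to 0.21 for Snai1. Depth limits Twist1, with at most 23 reads per sample, and leaves Id4 and Msc untested. Scaling moved the median of all genes by less than 0.1 in each comparison. Over all genes tested, sample weights raised the calls from 2474 to 4683 in WT differentiation, from 1697 to 3773 between myoblasts and from 371 to 1221 for the interaction. With only the samples compared they were 2656 between myoblasts, and 1565 in place of 2521 between myotubes. Without WT myotube replicate 1, 1564 genes were called in WT differentiation, and without WT myoblast replicate 2, WT myotube replicate 3 or Fam134bKO myoblast replicate 1 or 4 the interaction called 231 to 245. Quantile normalization moved the share of WT differentiation calls that were higher from 60.15% to 49.72%.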
